A study of Mus musculus with 12 samples.

Results

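Genes for the uptake, export, storage and binding of iron and copper were examined in 12 ileum RNA-seq libraries. They are 10 genes of 54838 in the count table, found by matching Ensembl identifiers to the symbols Tfrc, Slc11a2, Slc40a1, Cybrd1, Heph, Fth1, Ftl1, Meltf, Atp7a and Slc31a1, and all 10 were among the 15938 genes with enough counts to be tested. The list was chosen by function, with changes of some of its members under zinc and dexamethasone (Dex, a synthetic glucocorticoid) in these same libraries already known. The calls below therefore give the size of each change against the spread between mice and are no independent evidence that iron genes respond.

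C57BL/6J mice without any engineered allele drank normal water or water with 25 mM ZnSO4 for 7 days, were then injected with PBS or with 200 µg Dex, and were sampled 2 h later. The 4 groups of 3 mice are named water + PBS, water + Dex, ZnSO4 + PBS and ZnSO4 + Dex. According to the study's methods these mice were female, and an age per sample was not given in the sources used here. RNA came from whole washed ileum, so fewer cells of a type and less RNA per cell cannot be told apart.

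Dietary iron is absorbed by enterocytes, the absorptive cells of the villi. Ferric iron is reduced at the brush border, ferrous iron enters through the transporter encoded by Slc11a2, and it is then stored in ferritin or exported to the blood through ferroportin, the product of Slc40a1, with the copper-containing oxidase hephaestin at its side. Copper enters cells through the transporter encoded by Slc31a1 and leaves enterocytes through the pump encoded by Atp7a. Several of the mRNAs are controlled after transcription by iron-responsive elements (IREs), short hairpins that bind iron regulatory proteins when iron is low. An IRE in the 5' UTR lets these proteins block translation, whereas IREs in the 3' UTR of the transferrin receptor mRNA protect it from decay.

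The IREs are shown because they mark members that iron can control after transcription, in 2 ways. A hairpin was searched as an unpaired C, an arm of 5 bases, a loop beginning with CAGTG and a pairing arm, in the UTRs of the GENCODE transcripts (GRCm38, the same assembly as mm10). It was found in 4 of the 10 members, against 160 of 21901 protein-coding genes (0.731%). The loop is in capitals.
Fth1, 5' UTR, chr19:9982732-9982760, plus strand: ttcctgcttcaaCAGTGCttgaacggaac
Ftl1, 5' UTR, chr7:45459779-45459807, minus strand: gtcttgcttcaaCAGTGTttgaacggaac
Slc40a1, 5' UTR, chr1:45925465-45925493, minus strand: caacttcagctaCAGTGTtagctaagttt
Tfrc, 3' UTR, chr16:32631219-32631247, plus strand: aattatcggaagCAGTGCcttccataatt
Tfrc, 3' UTR, chr16:32631598-32631626, plus strand: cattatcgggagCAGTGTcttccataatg
Tfrc, 3' UTR, chr16:32631663-32631691, plus strand: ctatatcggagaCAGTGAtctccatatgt
Tfrc, 3' UTR, chr16:32631710-32631738, plus strand: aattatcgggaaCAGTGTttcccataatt
The 2 ferritin hairpins had nearly the same letters, and the 4 of Tfrc lay within one stretch of its 3' UTR. The Slc40a1 hairpin was in 3 of 8 annotated transcripts, that of Fth1 in 5 of 9, that of Ftl1 in 2 of 6 and each of Tfrc in 2 of 7. Slc11a2 held no match to this pattern, which says only that these letters are not in its annotated UTRs. All 5 bases of the arm had to pair, so a hairpin with a bulge there would be missed. A member without a match is therefore not shown to lack an IRE. A match is a description and not a measured binding site.

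Total counts lay between 10760132 and 11827487 reads on genes per library (median 11388606). Enterocyte markers were high in every library, and 1 library stood apart: in ZnSO4 + Dex replicate 2 the summed level of 8 enterocyte markers was 7009 CPM (reads of a gene scaled to library size), against 12710 and 16550 in the other mice of its group and 9938 to 16600 in the remaining groups. These markers summed to more in every ZnSO4 + PBS mouse (13030 to 16600 CPM) and in every water + Dex mouse (13050 to 14960 CPM) than in any water + PBS mouse (9938 to 12720 CPM). Singly, 0 of the 8 passed the test described below as higher in either comparison, and 1 passed as lower with Dex. Their median log2 fold changes were 0.097 with ZnSO4 and 0.255 with Dex. The sum of 6 distal enterocyte markers was 7664 to 9109 CPM in water + PBS mice. It was 6488 to 10810 CPM in ZnSO4 + PBS mice, with overlap, and 9340 to 11180 CPM in water + Dex mice, without overlap. The defining B cell markers varied within groups, from 10.8 to 580.5 CPM in sum over all libraries. Values that ZnSO4 + Dex replicate 2 moved are given below with and without it.

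Slc40a1 (ENSMUSG00000025993, chr1:45908068-45926523, minus strand) fell with both treatments. It encodes ferroportin, the only known exporter of iron from cells. Its normalised counts (reads scaled to a library of 11377723 reads) were 2372, 1674 and 1739.8 in water + PBS mice. With Dex alone they were 1031, 978 and 1108, and they were 1296, 1041 and 1319 in ZnSO4 + PBS mice, and 669.8, 599 and 547 in ZnSO4 + Dex mice. Every water + PBS mouse lay above every other mouse, every ZnSO4 + Dex mouse lay below every other mouse, and the groups with 1 treatment lay between them. The mean with both treatments was 31.4% of that in water + PBS mice, against 53.9% with Dex alone and 63.2% with ZnSO4 alone.

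Differential expression was tested with edgeR's quasi-likelihood method in 1 fit of all 12 libraries, with Benjamini-Hochberg adjustment over all 15938 genes, and a gene was called at an adjusted p under 0.05. The log2 fold change (LFC) of Slc40a1 with Dex was -0.89 (SE 0.14, adjusted p = 0.00167) in water mice and -1.01 (SE 0.14, adjusted p = 0.000565) in zinc mice. With ZnSO4 the LFC was -0.78 (SE 0.14, adjusted p = 0.0103) in Dex mice and -0.66 (SE 0.14, adjusted p = 0.0221) in PBS mice. The last of these calls was the least firm: its adjusted p rose to 0.0730, 0.0575, 0.0632 and 0.0528 without water + PBS replicate 1, ZnSO4 + PBS replicate 1, replicate 2 and replicate 3, and to 0.0804 when only the PBS mice were fitted. The interaction, which asks whether ZnSO4 and Dex together differed from the sum of their separate log2 effects, was -0.12 with a 95% interval from -0.55 to 0.31. Macrophages also express ferroportin, and the summed level of 8 macrophage markers was 266 to 339 CPM in water + PBS mice and 233 to 254 CPM in ZnSO4 + PBS mice, which did not overlap, whereas it was 308 to 363 CPM in water + Dex mice and 284 to 334 CPM in ZnSO4 + Dex mice. The part of these cells in the Slc40a1 values was not tested.

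Meltf (ENSMUSG00000022780, chr16:31878810-31899020, plus strand) was nearly lost with ZnSO4. It encodes melanotransferrin, a membrane-anchored relative of transferrin that can bind iron. Normalised counts were 37.0, 92.3 and 99.8 with water and PBS and 66.9, 147 and 153 in water + Dex mice. They were 2.83, 0.915 and 0 in ZnSO4 + PBS mice, and 0, 0.961 and 0 in ZnSO4 + Dex mice. No ZnSO4 mouse came near the lowest water mouse, and the water mice themselves spread widely.

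The summed raw counts behind these values were 235 in water + PBS mice against 4 in ZnSO4 + PBS mice, a level 61.7-fold lower (95% exact counting interval 23.8 to 228), and 338 in water + Dex mice against 1 in ZnSO4 + Dex mice, a ratio of 0.00276 (95% exact counting interval 6.98e-05 to 0.0155). These intervals cover counting error only. In edgeR's quasi-likelihood test the adjusted p was 0.00123 in PBS mice and 0.00056 in Dex mice. Meltf passed the filter on low counts only through the water groups, where it is high, so these p-values are given as a description and support nothing further. A filter that asked for 10 counts in every library removed the gene. With Dex the LFC of Meltf in water mice was 0.68 (SE 0.42, adjusted p = 0.38), and the ranges overlapped.

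The 250 bases upstream of the annotated start of Meltf are shown because no other member changed as far (RefSeq, GRCm38.p6, chr16:31878560-31878809, plus strand).
Meltf: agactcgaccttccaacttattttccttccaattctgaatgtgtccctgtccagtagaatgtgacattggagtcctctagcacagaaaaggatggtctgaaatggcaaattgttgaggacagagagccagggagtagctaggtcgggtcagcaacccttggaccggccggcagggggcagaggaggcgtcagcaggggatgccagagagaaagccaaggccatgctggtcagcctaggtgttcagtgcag
The window and the 50 bases after it were searched on both strands for the core of the metal response element (TGCACNC or TGCGCNC), for the hypoxia response core (ACGTG) and for a glucocorticoid response core (ACANNNTGT). None of the 3 was found, which says only that these letters are absent from this window. They occurred in 25.7%, 19.6% and 6.85% of all 32851 promoter windows. Promoter windows were held for 7 of the 10 members.

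Slc11a2 (ENSMUSG00000023030, chr15:100387898-100425072, minus strand) fell with Dex in both drinking groups. It encodes DMT1, the proton-coupled transporter that brings ferrous iron into enterocytes. Normalised counts were 682, 613 and 683 in water + PBS mice, 458, 399.6 and 465 in water + Dex mice, 732, 631 and 656 in ZnSO4 + PBS mice, and 386, 345 and 475 in ZnSO4 + Dex mice. All Dex mice lay below all PBS mice. The LFC was -0.58 (SE 0.12, adjusted p = 0.00749 by edgeR) in water mice and -0.74 (SE 0.12, adjusted p = 0.00118) in zinc mice, and both calls held without any 1 of the 12 libraries. With ZnSO4 the LFC was 0.03 in PBS mice (95% interval -0.22 to 0.28) and -0.13 in Dex mice (95% interval -0.39 to 0.12). Of its exon bases 6.33% are overlapped by the antisense gene Gm5475, and the strand setting of the counting is not given in the sources used here, so reads of the pair may not have been told apart.

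**Figure D1:**
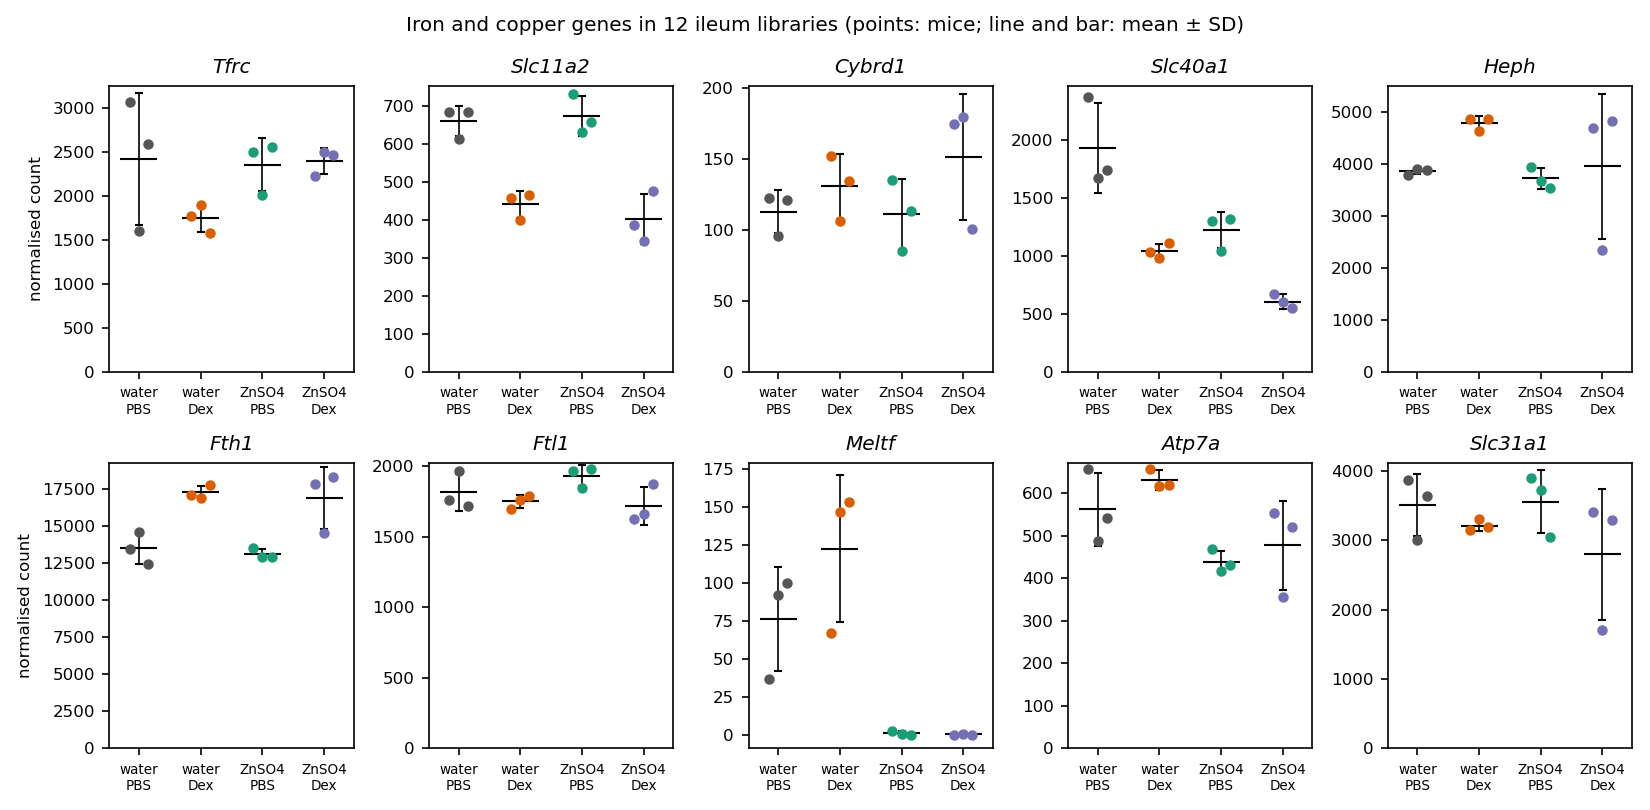
Normalised counts of the 10 iron and copper genes (vertical axes, linear from 0) in the 4 groups, 1 point per mouse, with the mean and SD of 3 mice as line and bar. Slc40a1 is lowest in the ZnSO4 + Dex mice (547 to 669.8), Meltf lies between 0 and 2.83 in all ZnSO4 mice, and Slc11a2 is lower in all Dex mice than in all PBS mice.

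Members called were thus 2 of 10 in each of the 4 comparisons, and all had lower counts with the treatment: Meltf and Slc40a1 with ZnSO4, Slc11a2 and Slc40a1 with Dex. Without Meltf, which passed the filter only through its high groups, 1 member was called in each ZnSO4 comparison. Of all genes tested, 4.66% were called for ZnSO4 in PBS mice, 4.37% for ZnSO4 in Dex mice, 9.93% for Dex in water mice and 13.7% for Dex in zinc mice. Since the list was put together with such changes known, nothing is read from the difference. For the interaction 0 of the 10 members and 0 of all genes (0%) were called with edgeR. Before adjustment, 794 genes and 0 members had a p under 0.05 for it, and DESeq2 called 0 genes (625 genes and 0 members before adjustment). Groups without any overlap were seen in 3 members for ZnSO4 in PBS mice (25.3% of all genes), in 4 for ZnSO4 in Dex mice (25.9%), in 4 for Dex in water mice (29.7%) and in 3 for Dex in zinc mice (29.1%). The comparisons share groups and are not independent of each other.

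The other genes of iron uptake did not pass the test. Tfrc encodes the transferrin receptor, which takes up iron from the blood side and marks dividing cells. Its normalised counts were 3071, 1597 and 2587 in water + PBS mice, 1772, 1899 and 1579.8 in water + Dex mice, 2498, 2008 and 2554 in ZnSO4 + PBS mice, and 2222, 2501 and 2463 in ZnSO4 + Dex mice. Water + PBS mice spread across the range of the other groups, and the water + Dex mice lay below both ZnSO4 groups. The LFC with Dex was -0.47 (SE 0.19, adjusted p = 0.17) in water mice and 0.03 (SE 0.19, adjusted p = 0.95) in zinc mice. Without water + PBS replicate 2, the lowest of its group, the LFC in water mice was -0.69 and the adjusted p 0.00735. In Dex mice the LFC with ZnSO4 was 0.45 (SE 0.19, adjusted p = 0.22). The 2 effects of Dex differed by an interaction LFC of 0.49 (95% interval -0.10 to 1.08, adjusted p = 0.95), so a difference between them was not shown.

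Cybrd1 encodes duodenal cytochrome b, a ferric reductase of the brush border that is mainly a gene of the upper small intestine. It was low here, with group means of 113 ± 15.2 (SD, n = 3) in water + PBS mice, 130.5 ± 23.1 with Dex alone, 111 ± 24.9 in ZnSO4 + PBS mice and 151 ± 44.3 in ZnSO4 + Dex mice. The groups overlapped in all comparisons. Its largest LFC was 0.45 with Dex in zinc mice (95% interval -0.07 to 0.97, adjusted p = 0.27 by edgeR).

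Ferritin is built from heavy and light chains, encoded by Fth1 and Ftl1, and only the heavy chain oxidises iron. Fth1 (chr19:9980598-9985098, plus strand) had normalised counts of 13432, 14624 and 12457 in water + PBS mice and 17141, 16922 and 17786 in water + Dex mice. In ZnSO4 + PBS mice they were 13545, 12952 and 12909.8, and in ZnSO4 + Dex mice 17876, 14519 and 18311. All Dex mice lay above the PBS mice that drank the same water, apart by less in replicate 2 of ZnSO4 + Dex.

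The LFC of Fth1 with Dex was 0.36 in both drinking groups (SE 0.11 in each), and the adjusted p of edgeR was 0.0733 in water mice and 0.0541 in zinc mice, so Fth1 did not pass the test. The same differences were called by DESeq2 (adjusted p = 0.00677 and 0.00692), and by edgeR without ZnSO4 + Dex replicate 2 (adjusted p = 0.0121 and 0.0049, with an LFC of 0.46 in zinc mice). With ZnSO4 the LFC was -0.04 in PBS mice (95% interval -0.29 to 0.21) and -0.03 in Dex mice (95% interval -0.28 to 0.21). The enterocyte marker sums of water + PBS and water + Dex mice did not overlap, and their part in the Fth1 values was not tested. Of its annotated transcripts, 5 of 9 carry the IRE in the 5' UTR shown above, so that these counts leave the ferritin protein unknown.

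Ftl1 (chr7:45457944-45459884, minus strand) had group means of 1817 ± 132 (SD, n = 3) in water + PBS mice, 1752 ± 46.8 with Dex alone, 1932 ± 74.5 in ZnSO4 + PBS mice and 1721 ± 134 in ZnSO4 + Dex mice, with overlap in all comparisons. The LFC with Dex was -0.05 (95% interval -0.22 to 0.11) in water mice and -0.17 (95% interval -0.33 to -0.000382, adjusted p = 0.19 by edgeR) in zinc mice. Its level is uncertain. Of its 31-base stretches 64.1% also occur in other genes and pseudogenes such as Ftl1-ps1 and Ftl2-ps, and 26.5% of its exon bases are overlapped by Gm10252 on the other strand. Reads with several positions were left out of the deposited counts. For Fth1 the shared part was 3.24%.

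Heph encodes hephaestin, the ferroxidase that loads exported iron onto transferrin. Its normalised counts were 3799, 3899 and 3898 in water + PBS mice and 4877, 4632 and 4879.8 in water + Dex mice, 2 tight groups with a gap between them. In ZnSO4 + PBS mice they were 3947, 3683 and 3548, and in ZnSO4 + Dex mice 4695, 2355 and 4838. Replicate 2 of ZnSO4 + Dex had 49.4% of the mean of the other mice of its group. Its marker sums stood at 47.9% of theirs for enterocytes, 63.4% for distal enterocytes, 68.1% for proximal enterocytes, 154% for Paneth cells and 33.5% for a list of hepatocyte genes, of which Apob, also expressed by enterocytes, made up 81.1% to 99.8%.

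The LFC of Heph with Dex was 0.31 (SE 0.20, adjusted p = 0.41 by edgeR) in water mice and 0.09 (SE 0.20, adjusted p = 0.83) in zinc mice with all libraries. Without ZnSO4 + Dex replicate 2 it was 0.31 (adjusted p = 0.0062) and 0.36 (adjusted p = 0.00514). When only the groups compared were fitted, the adjusted p in water mice was 0.0147. The enterocyte marker sum was likewise higher in all water + Dex mice than in all water + PBS mice. The part of enterocyte content in these values of Heph was not tested.

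Slc31a1, which encodes the high-affinity copper importer CTR1, was the copper gene with the higher level. Normalised counts were 3878, 3013 and 3636 in water + PBS mice, 3147, 3310.2 and 3188 in water + Dex mice, 3901, 3730.25 and 3049 in ZnSO4 + PBS mice, and 3407, 1715 and 3292 in ZnSO4 + Dex mice. The groups overlapped in all comparisons. Its low value in ZnSO4 + Dex replicate 2 was 51.2% of the other mice of the group. The LFC with ZnSO4 was 0.02 in PBS mice (95% interval -0.44 to 0.48) and -0.20 in Dex mice (95% interval -0.66 to 0.27), and with Dex -0.13 in water mice and -0.34 in zinc mice (adjusted p = 0.78 and 0.34 by edgeR). Without ZnSO4 + Dex replicate 2 the LFC was 0.06 with ZnSO4 in Dex mice and -0.09 with Dex in zinc mice (adjusted p = 0.86 and 0.73).

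Atp7a encodes the copper-transporting ATPase that pumps copper out of enterocytes. Normalised counts were 657, 488 and 541 in water + PBS mice, 657, 617 and 618 in water + Dex mice, 468, 417 and 429.8 in ZnSO4 + PBS mice, and 554, 356 and 520.1 in ZnSO4 + Dex mice. The ZnSO4 mice lay below the water mice under PBS and under Dex, without overlap. The LFC with ZnSO4 was -0.36 (SE 0.15, adjusted p = 0.21) in PBS mice and -0.40 (SE 0.15, adjusted p = 0.17) in Dex mice, so that neither passed edgeR's test over all genes, and without ZnSO4 + Dex replicate 2 the LFC in Dex mice was the smallest of the fits with 1 library left out, -0.23. The lowest value of Atp7a was again in ZnSO4 + Dex replicate 2, at 66.4% of the other mice of its group.

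The upstream bases of Atp7a (RefSeq, GRCm38.p6, chrX:106026974-106027223, plus strand) are shown because, beside Tfrc, it was the member whose window held both the metal and the hypoxia cores.
Atp7a: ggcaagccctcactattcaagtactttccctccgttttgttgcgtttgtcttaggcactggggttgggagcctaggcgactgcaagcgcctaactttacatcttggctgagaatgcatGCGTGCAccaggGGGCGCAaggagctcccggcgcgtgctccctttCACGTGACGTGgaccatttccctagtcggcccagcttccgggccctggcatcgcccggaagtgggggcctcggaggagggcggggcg
The capitals mark 2 matches to the metal core and 3 matches to the hypoxia core, of which the first 2 overlap and the last adjoins them. Windows of Tfrc held 2 overlapping metal cores and 1 hypoxia core, Slc31a1 held 1 hypoxia core after its start, and Cybrd1 held 1 glucocorticoid core. These matches are counts of letters in the windows.

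**Figure D2:**
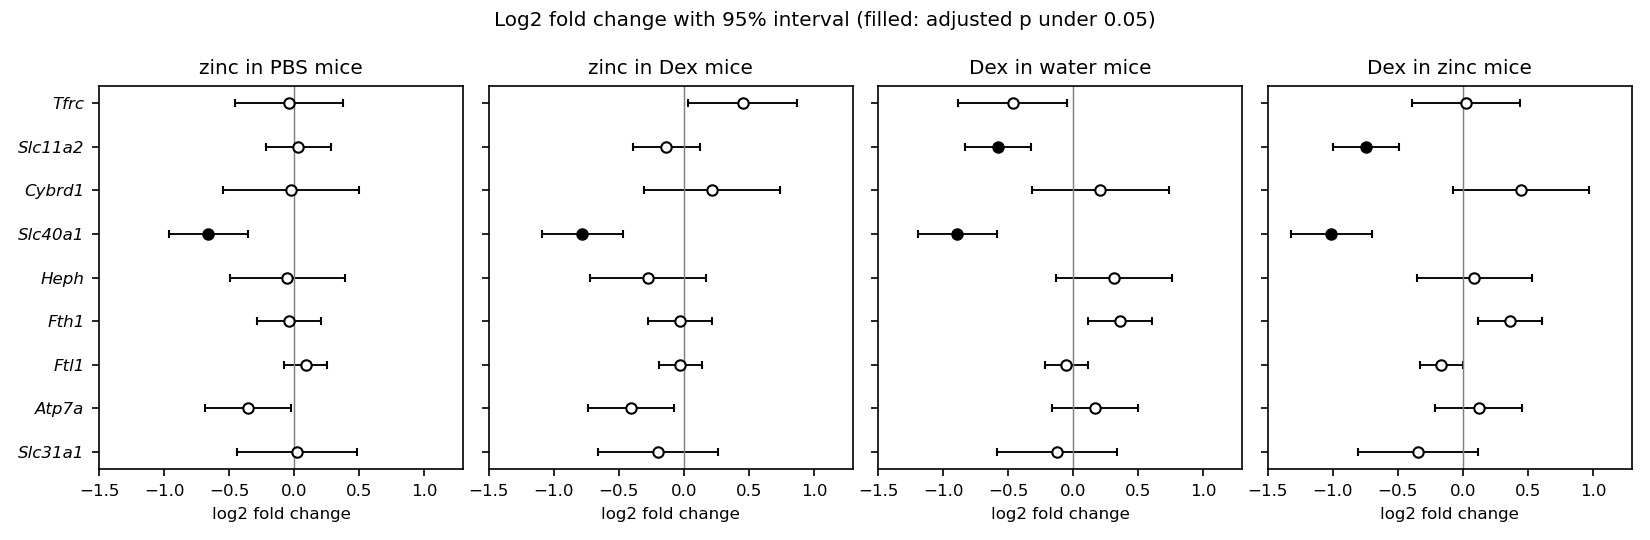
LFC (horizontal axes) of 9 members in the 4 comparisons, with 95% intervals and filled points where the adjusted p was under 0.05. Slc40a1 is below 0 in each panel, Slc11a2 in both Dex panels, and the Fth1 intervals with Dex lie above 0 although the adjusted p was 0.0733 and 0.0541. Meltf is left out because a fitted fold against counts near 0 depends on the prior count.

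Heph, Slc31a1, Atp7a and Fth1 were all low in ZnSO4 + Dex replicate 2, and their covariation between mice of the same group rested mainly on that library. After removal of the group means, Pearson's r of log2 CPM was 0.91 for Heph with Slc31a1, 0.90 for Atp7a with Slc31a1, 0.84 for Heph with Fth1 and 0.81 for Heph with Atp7a over the 12 libraries. Over the 11 libraries without ZnSO4 + Dex replicate 2 the same values were 0.31, 0.66, 0.37 and 0.05. These are descriptions of points that share library and depth. Slc40a1 had an r of 0.00 with Heph and 0.01 with Fth1 over the 12 libraries, and its value in ZnSO4 + Dex replicate 2 was 98.4% of the other mice of the group.

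**Figure D3:**
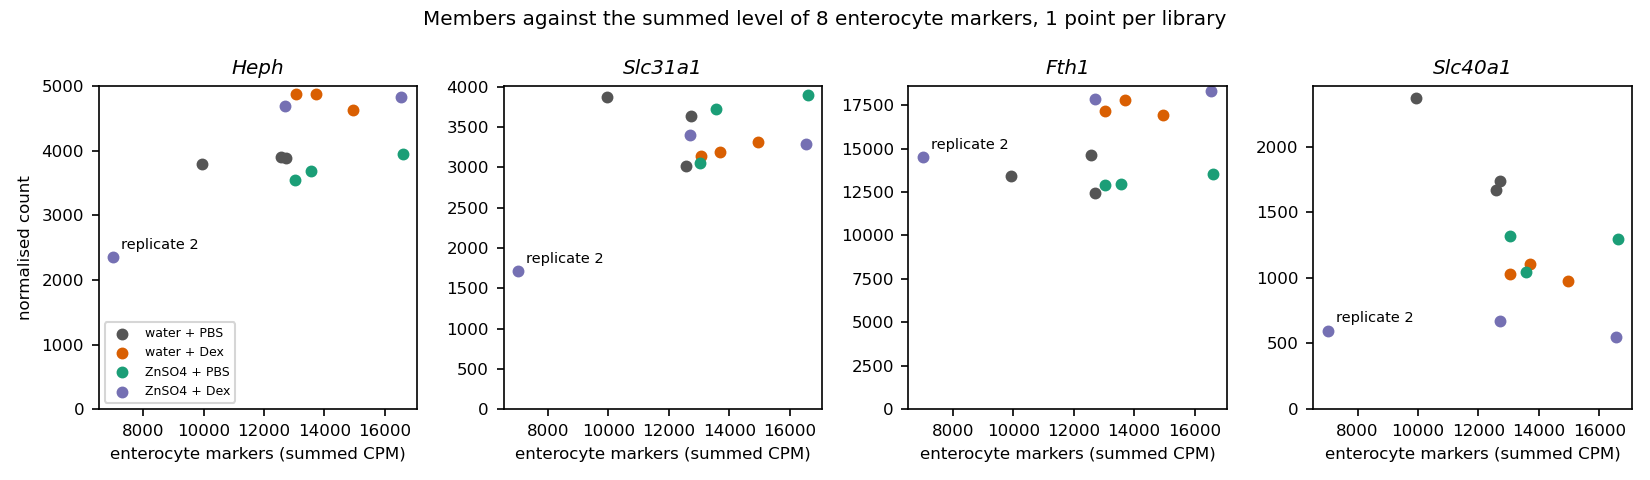
Normalised counts of Heph, Slc31a1, Fth1 and Slc40a1 (vertical axes, from 0) against the summed CPM of 8 enterocyte markers (horizontal axes), 1 point per library, coloured by group. ZnSO4 + Dex replicate 2, with 7009 CPM of markers, is the lowest library for Heph (2355) and Slc31a1 (1715), but not for Slc40a1.

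Levels of the members can be compared per length of exon, as reads scaled to exon length and library size (RPKM). In water + PBS mice the order of mean RPKM was Fth1 (342 ± 27.5, SD, n = 3), Ftl1 (119 ± 8.64), Slc31a1 (72.1 ± 9.16), Heph (44.3 ± 0.659), Tfrc (34.4 ± 10.7), Slc40a1 (18.8 ± 3.76), Slc11a2 (9.12 ± 0.555), Atp7a (5.65 ± 0.870), Cybrd1 (1.86 ± 0.250) and Meltf (1.62 ± 0.730). Heph and Tfrc, Tfrc and Slc40a1, and Cybrd1 and Meltf overlapped in range as neighbours, whereas the other neighbours did not. The place of Ftl1 is uncertain, since 64.1% of its 31-base stretches also occur in other genes and reads with several positions were left out. In ZnSO4 + Dex mice Slc40a1 had fallen to an RPKM of 5.91 ± 0.603 and overlapped Slc11a2 with 5.56 ± 0.922, where the export gene had stood above the import gene without overlap in water + PBS mice. Slc31a1 and Heph also overlapped in ZnSO4 + Dex mice, where replicate 2 was low in both.

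The wider iron and copper pathways were described with 8 lists of 124 genes apart from the members, of which 111 were tested. With ZnSO4, 5 rose and 5 fell in PBS mice and 6 rose and 7 fell in Dex mice. With Dex, 7 rose and 3 fell in water mice, and 9 rose and 10 fell in zinc mice. These are 9.01%, 11.7%, 9.01% and 17.1% of the genes tested in the lists, beside 4.66%, 4.37%, 9.93% and 13.7% of all genes. The lists were also chosen with earlier results of these data known. Nothing is therefore read from these shares or from the counts within single lists. The calls held without any 1 of the 12 libraries for 7 of 10 and 5 of 13 genes with ZnSO4, and for 6 of 10 and 7 of 19 with Dex, in the same order.

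Other genes of iron uptake and transport (13 tested) had 2 falls with ZnSO4 in PBS mice and 3 in Dex mice, and no rise. Of all genes tested, 4.66% and 4.37% were called in these comparisons, in either direction. The median LFC of the list was -0.40 and -0.37, beside -0.01 and 0.01 over all genes. Steap1, of the family of metalloreductases, had normalised counts of 59.3, 57.2 and 52.3 in water + PBS mice and of 23.6, 17.4 and 20.4 in ZnSO4 + PBS mice. Its LFC was -1.46 (SE 0.18, adjusted p = 0.00141 by edgeR), and -1.39 (adjusted p = 0.00238) with ZnSO4 in Dex mice. Ltf, which encodes the iron-binding protein lactoferrin, had 41.8, 24.1 and 17.1 normalised counts in water + PBS mice and 2.83, 5.49 and 1.85 in ZnSO4 + PBS mice (adjusted p = 0.0115, at most 0.0566 without 1 library, lost without water + PBS replicate 1, ZnSO4 + PBS replicate 1 or replicate 3). In Dex mice the LFC of Ltf with ZnSO4 was -2.18 (adjusted p = 0.0328), a call lost without water + Dex replicate 2 or replicate 3 or without ZnSO4 + Dex replicate 1 or replicate 2 (adjusted p up to 0.13), and lost in a fit that blocked on replicate number. Normalised counts of Ltf were 6.22, 2.88 and 9.61 in ZnSO4 + Dex mice. Like Meltf, it passed the filter on low counts only through the water groups, where it is high. Its p-values are therefore given as a description and support nothing further. The 2 and 3 falls counted above include it.

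Lcn2 encodes lipocalin 2, which binds bacterial siderophores and so keeps iron from bacteria. It was the list gene with the largest rise with Dex, from 55.4, 49.2 and 25.7 normalised counts in water + PBS mice to 1171, 1375 and 1334.5 in water + Dex mice. The LFC was 4.90 (SE 0.24, adjusted p = 5.23e-07 by edgeR) in water mice and 4.98 (SE 0.25, adjusted p = 5.64e-07) in zinc mice. Among Dex mice it was lower with ZnSO4 (843, 669 and 754; LFC -0.78, adjusted p = 0.0450), a call that was lost in 8 of the 12 fits without 1 library (adjusted p up to 0.157). Slc39a8, a metal importer, and Steap3, an endosomal ferrireductase, were called with Dex in zinc mice alone, with LFCs of 0.70 and -0.65 (adjusted p = 0.0374 and 0.0256). These 2 calls were lost in 5 and 4 fits without 1 library, and whether they differ from Dex in water mice was not shown, since the interaction called no gene.

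Among the iron regulators (15 tested), the oxygen-sensing factors moved in opposite directions. Epas1 encodes HIF-2alpha, which is known to drive Slc11a2, Cybrd1 and Slc40a1 in iron-deficient gut, and Hif1a encodes its relative HIF-1alpha. Epas1 had normalised counts of 1020.5, 1089.6 and 983 in water + PBS mice, 1319, 1434 and 1515 in water + Dex mice, 1381, 1173 and 1316 in ZnSO4 + PBS mice, and 1840.4, 1732 and 1909 in ZnSO4 + Dex mice. Its group means were in the reverse order to those of Slc40a1: lowest in water + PBS and highest with both treatments. The groups with a single treatment overlapped each other for both genes. A link between the levels of these genes was not tested. These are counts of Epas1 mRNA, and they leave the HIF-2alpha protein and its activity unknown.

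With Dex the LFC of Epas1 was 0.46 in water mice (adjusted p = 0.00356) and 0.50 in zinc mice (adjusted p = 0.00153), and both calls held without any 1 library. With ZnSO4 it was 0.32 and 0.36 (adjusted p = 0.0472 and 0.0291), and these calls were lost in 10 and 5 of 12 fits without 1 library, with adjusted p up to 0.166 and 0.132. Hif1a had 850.2, 1038 and 905 in water + PBS mice and 637, 645 and 507 in ZnSO4 + PBS mice, an LFC of -0.64 (adjusted p = 0.0099) that held in all 12 fits. Its other LFCs were -0.52 with Dex in water mice, -0.51 with ZnSO4 in Dex mice and -0.39 with Dex in zinc mice (adjusted p = 0.0118, 0.0283 and 0.0415 by edgeR, and up to 0.0640, 0.113 and 0.143 without 1 library).

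Egln3, which encodes a prolyl hydroxylase that marks HIF proteins for decay, fell with Dex by an LFC of -1.06 in zinc mice (adjusted p = 0.00427) and -0.88 in water mice (adjusted p = 0.0165, lost in 3 fits without 1 library, up to 0.0614). Smad4, which carries the BMP signal to the hepcidin gene in liver, rose with Dex from 1687, 1461 and 1316 to 3016, 2988 and 3072 normalised counts in water mice (LFC 1.02, adjusted p = 6.97e-05) and by 0.94 in zinc mice (adjusted p = 0.000109). With ZnSO4 its LFC was -0.40 in PBS mice and -0.48 in Dex mice (adjusted p = 0.0498 and 0.0209, lost in 9 and 5 of 12 fits, up to 0.206 and 0.0879). Bmpr1a, a BMP receptor, was at -0.32 with Dex in zinc mice (adjusted p = 0.0184, lost in 3 fits). It lies outside the rule for named genes and completes the count of 5 called regulators in that comparison.

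**Figure D4:**
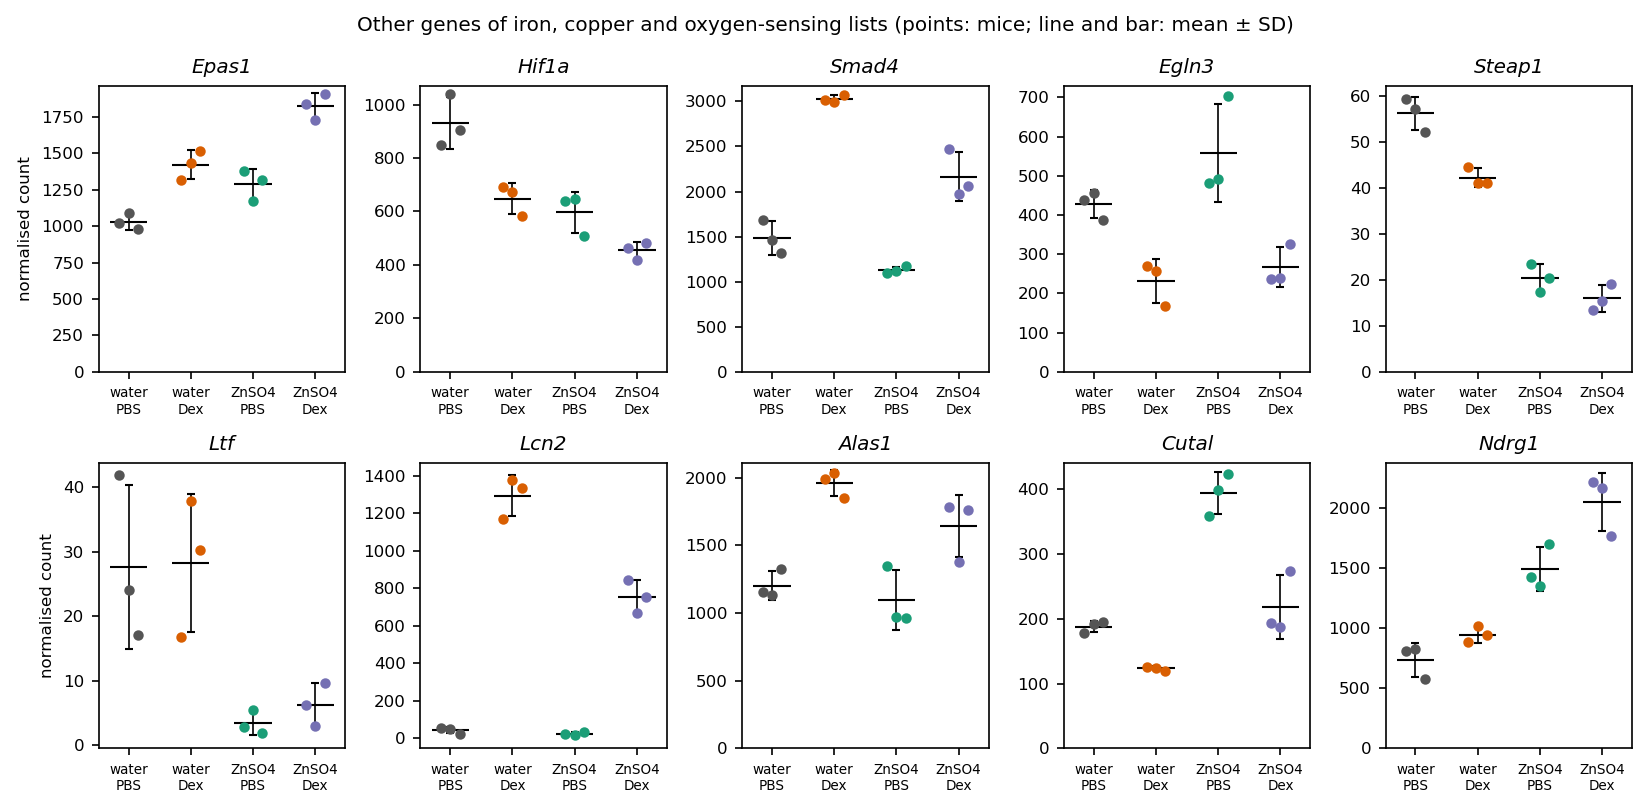
Normalised counts (vertical axes, linear from 0) of 10 other genes of the iron, copper and oxygen-sensing lists in the 4 groups, 1 point per mouse, with mean and SD of 3 mice. Lcn2 and Smad4 are higher in Dex mice, Steap1 and Ltf are lower in ZnSO4 mice, and Epas1 is lowest in water + PBS mice and highest in ZnSO4 + Dex mice, the reverse of Hif1a for these 2 groups.

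In haem metabolism (22 tested), Alas1, the rate-limiting enzyme of haem synthesis outside red cells, rose with Dex in water mice from 1153, 1131 and 1326 to 1990.1, 2035 and 1853 normalised counts (LFC 0.70, adjusted p = 0.00731 by edgeR). In zinc mice the LFC was 0.58 (adjusted p = 0.0157, lost in 4 fits without 1 library, up to 0.0670). Cd163, the haptoglobin receptor of macrophages, was called with Dex in water mice (LFC 1.45, adjusted p = 0.0431), Urod, an enzyme of haem synthesis, with ZnSO4 in Dex mice (LFC 0.38, adjusted p = 0.0293), and Flvcr1, a haem exporter, with Dex in zinc mice (LFC -0.83, adjusted p = 0.0457). The calls of Cd163, Urod and Flvcr1 were lost in 7, 5 and 9 of the 12 fits without 1 library. The macrophage marker sums, which include Cd163, overlapped between water + PBS and water + Dex mice. They did not overlap between ZnSO4 + PBS mice (233 to 254 CPM) and ZnSO4 + Dex mice (284 to 334 CPM). Of the 8 markers, 2 were called up and 0 down with Dex in water mice, and 3 up and 0 down in zinc mice. Cd163 is itself among the 2, and it was not among the 3 (adjusted p = 0.0860 by edgeR). The part of macrophage content in the Cd163 values was not tested.

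Among storage and mitochondrial genes, calls were few and none held in all 12 fits. Pcbp2, an iron chaperone for ferritin, had an LFC of 0.28 with Dex in zinc mice (adjusted p = 0.0198). Slc25a28, which encodes mitoferrin 2, was at 0.43 in the same comparison (adjusted p = 0.0192). Abcb10, a mitochondrial transporter needed for haem synthesis, was at -0.55 with ZnSO4 in Dex mice and -0.42 with Dex in zinc mice (adjusted p = 0.0192 and 0.0300). These 4 calls were lost in 3, 4, 3 and 4 fits without 1 library.

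Genes of copper handling (13 tested) had 3 rises with ZnSO4 in both PBS and Dex mice, beside 4.66% and 4.37% of all genes called in either direction. The 3 were the metallothioneins Mt1 and Mt2, which bind zinc and copper, and Cutal, named after the bacterial divalent cation tolerance protein CutA. Mt1 rose from 850.2, 700.3 and 490.3 normalised counts in water + PBS mice to 21988, 11971 and 22541 in ZnSO4 + PBS mice (LFC 4.79, adjusted p = 9.07e-06 by edgeR). Cutal rose with ZnSO4 from 178, 192 and 195 to 359, 399 and 423 normalised counts in PBS mice (LFC 1.07, adjusted p = 0.00192), and in Dex mice by 0.82 (adjusted p = 0.00812). With Dex Cutal fell by 0.85 on the log2 scale in zinc mice (adjusted p = 0.00144), and in water mice its LFC was -0.61 (adjusted p = 0.0178, lost in 5 fits without 1 library, up to 0.0733). Sco1, a copper chaperone of cytochrome oxidase, was called with Dex in zinc mice (LFC -0.34, adjusted p = 0.0407, lost in 8 fits), and Aoc2 was the called copper enzyme of 13 tested (LFC 1.36 with Dex in zinc mice, adjusted p = 0.0311, lost in 5 fits).

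HIF target genes (12 tested) moved both ways. Ndrg1 rose with ZnSO4 by an LFC of 1.02 in PBS mice (adjusted p = 0.00304) and 1.11 in Dex mice (adjusted p = 0.00185), whereas Ero1l, an oxidase of the endoplasmic reticulum, was at -0.54 and -0.41 (adjusted p = 0.0042 and 0.0157, the second lost in 2 fits, up to 0.0702). With Dex, Slc2a1, the glucose transporter GLUT1, rose in water mice (LFC 0.56, adjusted p = 0.00342) and in zinc mice (0.68, adjusted p = 0.000634), and the mitophagy gene Bnip3 rose in water mice (0.98, adjusted p = 0.0101). Ankrd37 fell by 1.54 on the log2 scale with Dex in zinc mice (adjusted p = 0.00182), and Car12, a carbonic anhydrase, was at -0.996 there (adjusted p = 0.0397, lost in 7 fits).

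The genes whose log2 CPM over the 12 libraries ran most like that of Meltf were Slc39a4 (Pearson's r 0.98), Acta1 (0.97), Upp1 (0.97), Aldh4a1 (0.96) and Il18bp (0.96). Meltf had raw counts between 0 and 3 in every ZnSO4 library. Its log2 CPM there was set largely by the prior count of 2 added before the log. These r values therefore rest mainly on the split between water and ZnSO4 mice. Slc39a4, which encodes the zinc importer ZIP4, had normalised counts of 2572 ± 126 (SD, n = 3) in water + PBS mice, 3261 ± 234 with Dex alone, 334 ± 46.3 in ZnSO4 + PBS mice and 290.5 ± 63.1 in ZnSO4 + Dex mice. For Slc40a1 the nearest were Ccdc93 (0.96), Batf2 (0.96), Lgr4 (0.96), Gm37844 (0.95) and Lzts3 (0.95). Batf2, a transcription factor of the AP-1 family, had 404 ± 22.6 in water + PBS mice, 132 ± 9.16 with Dex alone, 187 ± 37.9 in ZnSO4 + PBS mice and 53.1 ± 2.12 in ZnSO4 + Dex mice, the same order of groups as Slc40a1 with wider steps. These genes were picked from 15938 for their likeness, and the r values are descriptions.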

How the data were processed

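RNA of whole ileum from 12 mice, 3 in each of 4 groups, was sequenced from a stranded single-end library kit. According to the study's methods and the submitters' processing notes, the authors trimmed reads (Trimmomatic), mapped them to mm10 with HISAT2 2.0.4, left out reads with several positions and counted reads per gene with featureCounts. The deposited values are raw counts per gene. The annotation release and the strand setting of the counting are not given in the sources used here.

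The members and the lists were chosen with earlier results of these data known. Identifiers were matched to GENCODE M21 (GRCm38). Genes passing filterByExpr by group (minimum count 10) entered 1 edgeR 4.0.16 quasi-likelihood fit of 4 group means (R 4.3.3, TMM factors), and p-values were adjusted over the 15938 genes tested. Normalised counts are counts divided by effective library size, times the mean effective size. RPKM values use the summed exon length. The procedure was tested on simulated data. All members were named, with up to 3 called genes per list and comparison by lowest adjusted p, and the 5 genes most like Meltf and Slc40a1. Markers of 14 cell types were summed as CPM. Alternatives were DESeq2 1.42.0, RLE and upper-quartile factors, other filters, the replicate number as a block, fits of the compared groups, an added LFC cut-off of 0.8, a B cell marker covariate, and leaving out each library. Counts of list genes and of groups without overlap were added to these alternatives after seeing the data. No 2 libraries of a group differed by as little as sampling noise. Labels do not say more of the replicates than that they are biological.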

Additional observations from a re-analysis of the deposited data

How the results depend on the processing

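All 8 member calls kept their direction under every alternative that tested the gene. The number of members called for ZnSO4 in PBS mice and for ZnSO4 in Dex mice was 1 when 10 counts were required in every library, since Meltf was then not tested, and 1 in each of the 4 comparisons with the added LFC cut-off of 0.8. With only the groups compared it was 1 for ZnSO4 in PBS mice and 4 for Dex in water mice. Without 1 library it was 1 to 2 for ZnSO4 in PBS mice and 2 to 4 for Dex in water and in zinc mice, where the 4 was reached without ZnSO4 + Dex replicate 2. List genes called were 7 to 12 for ZnSO4 in PBS mice, 6 to 12 for Dex in water mice, 5 to 14 for ZnSO4 in Dex mice and 8 to 20 for Dex in zinc mice without 1 library, and 8 for Dex in zinc mice with only those groups. The share of all genes called in each refit is not given here, so nothing is read from how these counts of members and list genes moved. Member LFCs changed sign in 24 of 795 refits, in each case for an LFC that was not called and of at most 0.197 in size. With all libraries these were Fth1 and Ftl1 for ZnSO4 in Dex mice with upper-quartile factors (0.0089 and 0.018) and Tfrc for Dex in zinc mice with the B cell covariate (-0.087). Without 1 library, the ZnSO4 LFCs in PBS mice ranged from -0.27 to 0.19 for Tfrc, -0.035 to 0.074 for Slc11a2, -0.19 to 0.13 for Cybrd1, -0.094 to 0.021 for Fth1 and -0.078 to 0.12 for Slc31a1. In Dex mice they ranged from -0.095 to 0.065 for Fth1, -0.093 to 0.013 for Ftl1 and -0.36 to 0.059 for Slc31a1. The Dex LFCs ranged from -0.090 to 0.0073 for Ftl1 in water mice, and in zinc mice from -0.079 to 0.087 for Tfrc, -0.082 to 0.36 for Heph and -0.0017 to 0.29 for Atp7a. The cause of these differences was not tested.

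No paired design is stated, and same-numbered libraries did not deviate together (median r of -0.0557 over 18 pairs of libraries). With the replicate number as a block, 2 members were called in each of the 4 comparisons and 0 for the interaction, and 8, 9, 10 and 16 list genes for ZnSO4 in PBS mice, ZnSO4 in Dex mice, Dex in water mice and Dex in zinc mice. The shares of all genes called in that fit are not given here either.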
